A study of Penicillium oxalicum with 18 samples.

Results

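The genes described here were those of Penicillium oxalicum whose transcription level in glucose medium was raised in the complemented strain Refbx23 only. They numbered 91 of the 9230 genes in the table. Levels were compared as means of log2(FPKM + 1), where FPKM is the number of fragments per kilobase of transcript, scaled to the mapped reads of the library. The members were chosen by their measured levels in VMMG, the glucose medium, in all 3 strains, and in VMMC, the cellulose medium, in Δfbx23 and the WT. A gene was kept if its mean in Refbx23 was at least 5 FPKM in VMMG and if its log2 level there was at least 2 above that in Δfbx23 and at least 2 above that in the WT. Its log2 level in Δfbx23 also had to lie within 1 of that in the WT, both in VMMG and in VMMC. The values of Refbx23 in VMMC had no part in this choice, and only they could be tested, against values of Δfbx23 and the WT that the rule had used. All differences between strains in VMMG are therefore given as a description.

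The study asked how the F-box protein Fbx23 affects transcription, and it grew 3 strains in 2 media with 3 replicates each, which gave 18 libraries. In Refbx23, fbx23 had been put back with its own upstream region and the ptrA marker into Δfbx23, so that this strain carries both markers. In Δfbx23, the fbx23 gene of the WT had been replaced by the hygromycin marker hph. The WT was strain 114-2 and carried neither marker. Per the labels, all cultures grew in glucose medium for 24 h at 30 °C and then for 18 h in 1 of the 2 media. The first held glucose at 2%, and the second held bran at 1% beside cellulose at 1%. They are called VMMG and VMMC here after the study, whose names stand for Vogel's minimal medium, while the labels name another base medium. The labels name 1 genotype per strain and no separate transformants, so strain and transformant cannot be told apart. Nothing in the labels says whether replicates came from separate cultures, and p-values here measure only the spread between these libraries.

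F-box proteins are the part of SCF ubiquitin ligases that binds the substrate, and the other subunits bind it through Skp1. None of fbx23, ace1 and the genes of the other SCF subunits, skp1, cul1 and rbx1, was a member. For fbx23 the log2 level of Δfbx23 minus WT was -6.21 in VMMG and -5.97 in VMMC, so the rule could not keep it. Members were 0.986% of all genes, so nothing is read from the absence of the others. In Penicillium and Aspergillus, asexual sporulation runs through the transcription factor BrlA, and conidia carry a melanin pigment made by a polyketide synthase and tailoring enzymes. Many clusters of secondary metabolism genes in these fungi are active when the fungus sporulates.

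The label of Δfbx23 was checked by fbx23 (PDE_08467), which was listed at 0 in all 6 Δfbx23 libraries. In VMMG it was at 65.8, 64.4 and 74.9 FPKM in Refbx23 and at 76.8, 73.0 and 70.1 FPKM in the WT. These ranges overlap, so fbx23 could not tell Refbx23 from the WT. The libraries had relative scales from 0.947 to 1.05, taken from genes whose values above 0 differed little between libraries. This scale compares FPKM values and does not measure sequencing depth. Their FPKM sums ranged from 781397 to 954142. In Refbx23 in VMMG, 1 gene, PDE_09832, took 9.21% to 12.8% of the FPKM sum, against at most 2.02% in the other VMMG libraries. Scaling by the median ratio of genes shifted all log2 differences between Refbx23 and Δfbx23 in VMMG by -0.13, and those between Refbx23 and the WT by -0.05. Under this scaling the rule kept 84 genes, 82 of them among the 91. With pseudocounts of 0.1 and 0.5 in place of 1 it kept 83 and 85 genes, of which 63 and 74 were among the 91.

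The median member was at 28.9 FPKM in Refbx23 in VMMG, at 1.78 FPKM in Δfbx23 and at 2.69 FPKM in the WT. In VMMC the same medians were 19.1, 20.3 and 23.7 FPKM for Refbx23, Δfbx23 and the WT. Genes that were low in VMMG in Δfbx23 and the WT thus had a similar median level in all 3 strains in VMMC. The rule itself kept Δfbx23 and the WT alike in VMMC, and only the level of Refbx23 there was free. All 3 Refbx23 libraries lay above all Δfbx23 and WT libraries in VMMG for 90 of the 91 genes, and the exception was PDE_01603. Over the 7810 genes that averaged 1 FPKM or more in VMMG this share was 23.4%. These values chose the members, so nothing is read from this count. The members together took 1.94% to 2.37% of the FPKM sum in Refbx23 in VMMG, 0.176% to 0.313% in Δfbx23 and 0.241% to 0.470% in the WT. These are cultures of whole mycelium, in which fewer cells of a type and less RNA per cell cannot be told apart.

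**Figure D1:**
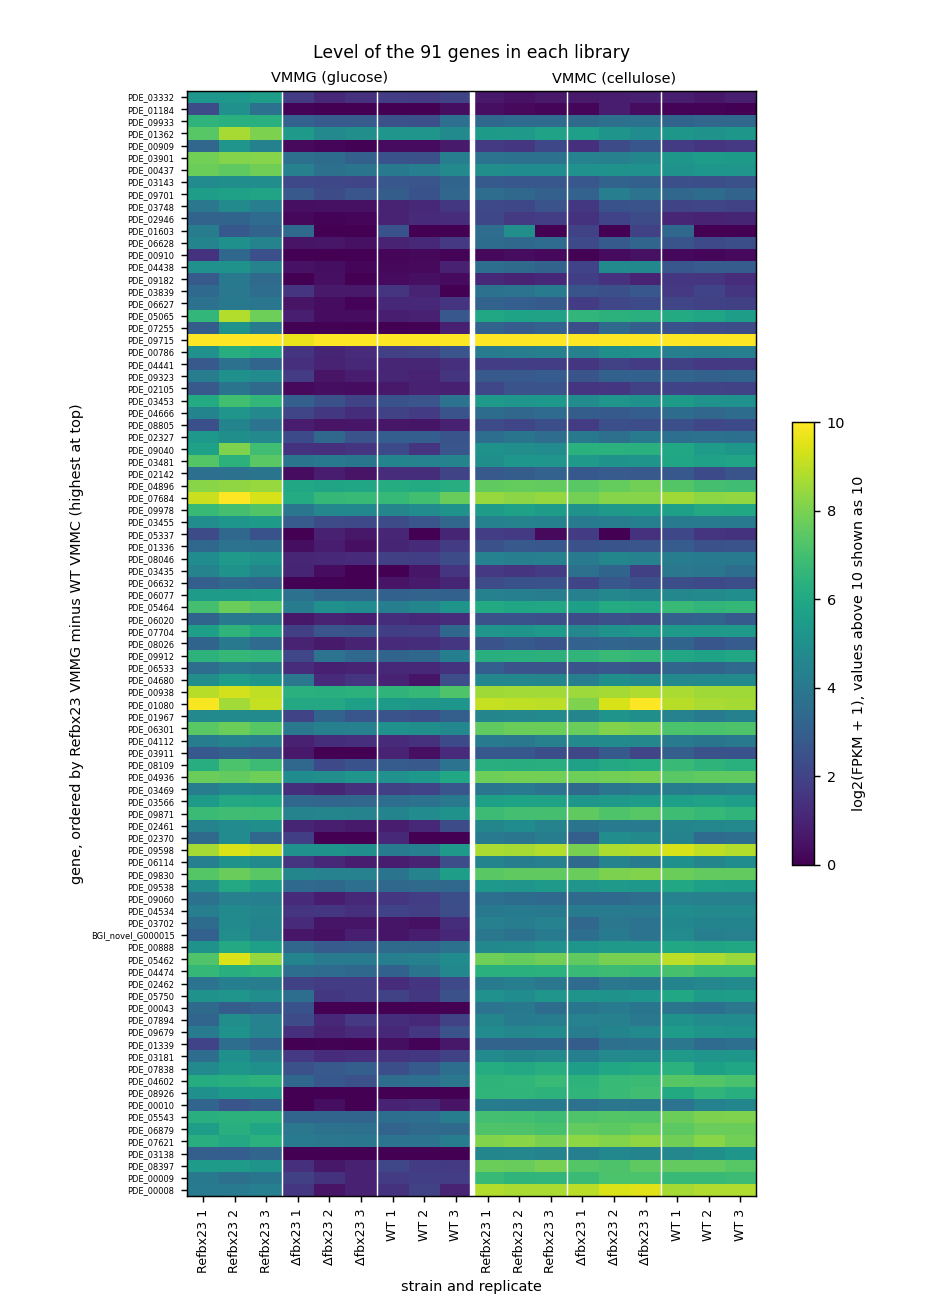
Colour shows log2(FPKM + 1) of each of the 91 genes (rows, ordered by the level of Refbx23 in VMMG minus that of the WT in VMMC) in each of the 18 libraries (columns, by strain and replicate), with VMMG on the left and VMMC on the right; values above 10 are drawn as 10. Most rows are bright in Refbx23 and dark in Δfbx23 and the WT in VMMG, and bright in all strains in VMMC, while several rows at the top are brightest in Refbx23 in VMMG.

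The values at the limits of the rule were as follows. The lowest level in Refbx23 in VMMG was that of PDE_00910 with 5.27 FPKM, and PDE_08030 stood just outside with 4.89 FPKM. The log2 difference from the WT in VMMG was 2.02 for PDE_05337 inside the limit and 1.97 for PDE_00333 outside it. That from Δfbx23 was 2.02 for PDE_09538 inside and 1.98 for PDE_03183 outside. For Δfbx23 minus WT, the closest values were -0.999 for PDE_02142 inside and -1.02 for PDE_00741 outside in VMMG, and 0.99 for PDE_04438 inside and 1.00 for PDE_05374 outside in VMMC. The limit on Δfbx23 minus WT in VMMG was the one that most genes failed alone. It left out 94 genes that met every other condition, and 90 of these were lower in Δfbx23 than in the WT. Most members were lower in Δfbx23 too. Their Δfbx23 minus WT in VMMG had a median of -0.35 and an upper quartile of -0.02. Over the 8056 genes that averaged 1 FPKM or more these were -0.07 and 0.20. The pseudocount of 1 shrinks log2 differences at low FPKM. For PDE_02946 the value was -0.999, with means of 0.107 FPKM in Δfbx23 and 1.22 FPKM in the WT.

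The gene with the highest level was PDE_09715, listed by the study under the extracellular region. It was at 11086, 12431 and 10949 FPKM in Refbx23 in VMMG, at 832, 2103 and 1431 FPKM in Δfbx23, and at 1394, 2099 and 3268 FPKM in the WT. In VMMC it was at 6261, 5954 and 6691 FPKM in Refbx23, at 6436, 7354 and 3328 FPKM in Δfbx23, and at 4871, 3618 and 3430.0 FPKM in the WT. Its Refbx23 libraries in VMMG were the highest of all 18. This 1 gene held more FPKM than the sum of all other members in each Refbx23 library in VMMG.

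Below PDE_09715 came a set of genes between 258 and 800.1 FPKM on average in Refbx23 in VMMG, for which no function was found in the tables used here. PDE_07684 was at 588, 1133 and 679.8 FPKM in Refbx23 in VMMG, at 69.5, 101 and 105 FPKM in Δfbx23 and at 102, 126 and 205 FPKM in the WT. PDE_01080 was at 956, 387 and 559.9 FPKM in Refbx23, at 64.5, 64.9 and 48.6 FPKM in Δfbx23 and at 42.8, 38.3 and 37.3 FPKM in the WT. Its order among the Refbx23 replicates was the reverse of that of PDE_07684. PDE_09598 averaged 552 ± 149 FPKM in Refbx23, 31.9 ± 2.62 FPKM in Δfbx23 and 25.1 ± 13.2 FPKM in the WT in VMMG (SD, n = 3 each). PDE_00938 averaged 548 ± 74.9, 81.0 ± 4.30 and 113 ± 32.5 FPKM in Refbx23, Δfbx23 and the WT (SD, n = 3 each). PDE_04896 and PDE_01362 completed the set beside the genes described further on, with 324 ± 26.1 and 277 ± 122 FPKM in Refbx23 in VMMG (SD, n = 3 each).

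The largest difference was that of PDE_05065, which stood 7.26 above Δfbx23 and 6.26 above the WT on the log2 scale in VMMG. It was at 97.4, 456 and 221 FPKM in Refbx23, at 0.77, 0.26 and 0.25 FPKM in Δfbx23 and at 0.78, 0.91 and 5.54 FPKM in the WT. In VMMC it was at 62.4, 54.7 and 53.7 FPKM in Refbx23, at 96.01, 84.69 and 80.8 FPKM in Δfbx23 and at 68.7, 58.4 and 48.3 FPKM in the WT. Every strain thus reached a high level of this gene in VMMC, and only Refbx23 did so in VMMG.

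PDE_08926 was listed at 0 in all 6 Δfbx23 and WT libraries in VMMG and was at 31.2, 42.6 and 42.4 FPKM in Refbx23 there. In VMMC it averaged 91.1 ± 2.86 FPKM in Refbx23, 108 ± 14.8 FPKM in Δfbx23 and 78.1 ± 12.5 FPKM in the WT (SD, n = 3 each). The other gene listed at 0 in those 6 libraries was PDE_03138, with 7.05, 6.89 and 8.71 FPKM in Refbx23 in VMMG. No read counts were at hand, so no limit can be set on a value listed at 0. In VMMC PDE_03138 averaged 22.8 ± 1.34 FPKM in Refbx23, 21.6 ± 2.81 FPKM in Δfbx23 and 30.7 ± 6.95 FPKM in the WT (SD, n = 3 each).

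Also among the 10 largest differences were PDE_09598, described above, PDE_00909 and PDE_07255. PDE_00909 was at 8.90, 35.8 and 20.2 FPKM in Refbx23 in VMMG, against at most 0.18 FPKM in Δfbx23 and at most 0.66 FPKM in the WT. PDE_07255 was at 6.69, 33.6 and 16.2 FPKM in Refbx23, against at most 0.05 FPKM in Δfbx23 and at most 0.83 FPKM in the WT. For both genes the lowest Refbx23 library was replicate 1 and the highest replicate 2.

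**Figure D2:**
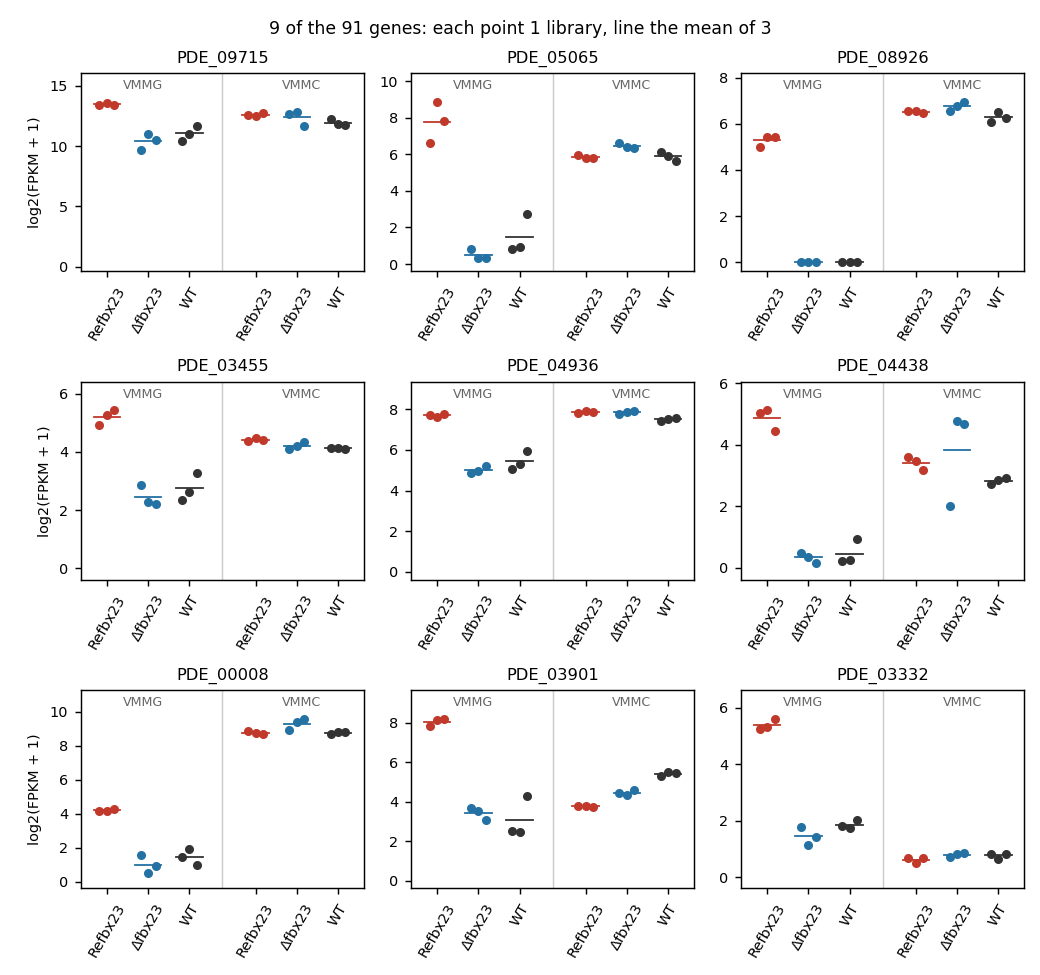
Points show log2(FPKM + 1) in single libraries and lines the means of 3 for 9 of the genes, with VMMG on the left and VMMC on the right of each panel and the strains in the order Refbx23, Δfbx23 and WT. In VMMG the Refbx23 points stand above the others in all 9 panels, and PDE_03332, unlike the other 8, stays below 1 in every strain in VMMC.

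Of the 91 genes, 18 carried an annotation in the tables used here and 73 carried none, so what most members do is not known here. The annotated members are given by role. Those for secondary metabolism come first. Cluster 13 of the 28 predicted clusters held 2 members. PDE_03455, its polyketide synthase, builds a polyketide chain and was at 29.1, 37.6 and 42.1 FPKM in Refbx23 in VMMG, at 6.32, 3.82 and 3.67 FPKM in Δfbx23 and at 4.04, 5.14 and 8.73 FPKM in the WT. PDE_03453, listed as a transmembrane transporter, was at 68.7, 125 and 97.4 FPKM in Refbx23, at 7.49, 4.6 and 3.14 FPKM in Δfbx23 and at 4.71, 5.26 and 13.1 FPKM in the WT. The gene between them, PDE_03454, was also high in Refbx23, with 249 ± 19.95 FPKM against 4.08 ± 1.01 FPKM in Δfbx23 and 27.6 ± 17.5 FPKM in the WT (SD, n = 3 each). It was no member because Δfbx23 stood 2.34 below the WT. In VMMC all 3 strains transcribed the cluster, with PDE_03455 at 20.4 ± 0.692 FPKM in Refbx23, 17.5 ± 1.62 FPKM in Δfbx23 and 16.4 ± 0.326 FPKM in the WT (SD, n = 3 each).

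Cluster 20 held PDE_06628, whose closest match in the study's tables is a dehydratase for 3-dehydroshikimate of Neurospora crassa, an enzyme of quinate breakdown there, and its neighbour PDE_06627, for which no function was found. PDE_06628 was at 21.6, 31.0 and 21.2 FPKM in Refbx23 in VMMG, at 0.45, 0.53 and 0.38 FPKM in Δfbx23 and at 1.01, 1.23 and 2.20 FPKM in the WT. PDE_06627 averaged 14.03 ± 1.54 FPKM in Refbx23, 0.263 ± 0.195 FPKM in Δfbx23 and 1.42 ± 0.369 FPKM in the WT (SD, n = 3 each). The other 6 genes of cluster 20 were no members, and among them PDE_06625 and PDE_06626 stood 0.95 and 0.64 below the WT in Refbx23 in VMMG. The clusters held 4 members among their 284 genes in the table, 1.41%, against 0.986% of all genes. Before the limits on Δfbx23 minus WT, 72 of these 284 genes met the conditions on Refbx23 in VMMG, beside 287 of all 9230 genes. For these counts 1 boundary of each of 3 clusters was read as a misprint. The printed start of cluster 28, PDE_09499, would instead take in 476 genes and 10 more members, among them PDE_09715 and PDE_09598.

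PDE_04438 matches subunit D of the linear gramicidin synthase of a bacterium, a nonribosomal peptide synthetase, and lies outside the 28 clusters. It was at 31.9, 33.8 and 20.9 FPKM in Refbx23 in VMMG, against at most 0.40 FPKM in Δfbx23 and at most 0.90 FPKM in the WT. In VMMC it was at 11.1, 10 and 8.04 FPKM in Refbx23, at 3.03, 26.3 and 24.5 FPKM in Δfbx23 and at 5.52, 6.26 and 6.58 FPKM in the WT. In VMMC the Refbx23 libraries thus lay between the lowest and the higher Δfbx23 libraries. PDE_04441 and PDE_02946, both listed under secondary metabolite biosynthesis, averaged 8.96 ± 3.25 and 8.95 ± 1.16 FPKM in Refbx23 in VMMG (SD, n = 3 each). In Δfbx23 they averaged 1.30 ± 0.320 and 0.107 ± 0.0404 FPKM, and in the WT 1.27 ± 0.283 and 1.22 ± 0.252 FPKM (SD, n = 3 each).

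PDE_04936 matches the psi-producing oxygenase PpoC of Aspergillus fumigatus. Such oxygenases make oxylipins, fatty acid derivatives known in Aspergillus for their part in the balance of sexual and asexual sporulation. PDE_04936 was at 207, 195 and 220.4 FPKM in Refbx23 in VMMG, at 28.03, 30.1 and 35.8 FPKM in Δfbx23 and at 32.03, 39.2 and 60.4 FPKM in the WT. In VMMC it averaged 232 ± 9.24 FPKM in Refbx23, 232 ± 11.1 FPKM in Δfbx23 and 182 ± 9.0 FPKM in the WT (SD, n = 3 each). Its Refbx23 libraries were among the most even of all members in VMMG, the highest being 1.13 times the lowest.

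Members listed for work on sugar polymers or the cell wall were PDE_03181 and PDE_04666, listed as hydrolases of glycosyl bonds, PDE_01339, a polygalacturonase, and PDE_08046, listed under cell wall organization. PDE_03181 was at 10.99, 31.3 and 19.9 FPKM in Refbx23 in VMMG, against at most 2.14 FPKM in Δfbx23 and at most 2.88 FPKM in the WT. PDE_04666 averaged 27.8 ± 7.67 FPKM in Refbx23, 2.28 ± 0.914 FPKM in Δfbx23 and 3.38 ± 1.28 FPKM in the WT (SD, n = 3 each). PDE_08046 averaged 34.5 ± 7.21 FPKM in Refbx23, 1.20 ± 0.127 FPKM in Δfbx23 and 3.09 ± 0.726 FPKM in the WT (SD, n = 3 each). PDE_01339 was at 3.03, 11.3 and 7.91 FPKM in Refbx23, against at most 0.03 FPKM in Δfbx23 and at most 0.57 FPKM in the WT. None of the 13 cellulase genes and none of the 7 hemicellulase and accessory genes of the lists used here was a member. With members at 0.986% of all genes, nothing is read from this absence. Genes listed for binding flavin or heme were PDE_02142, a monooxygenase that binds flavin, PDE_03469 and PDE_00910, which bind flavin, and PDE_04474, which binds heme. Their means in Refbx23 in VMMG ran from 5.27 FPKM for PDE_00910 to 88.5 FPKM for PDE_04474. PDE_04680, listed for metal ion transport, was at 30.0, 47.0 and 38.3 FPKM in Refbx23, at 14.6, 1.29 and 1.84 FPKM in Δfbx23 and at 0.95, 0.47 and 4.19 FPKM in the WT. Its Δfbx23 value in VMMG thus rested on replicate 1.

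By locus number, 13 of the members stood within 2 numbers of another member, in 1 run of 3 and 5 runs of 2. The run of 3 was PDE_00008, PDE_00009 and PDE_00010. PDE_00008 was at 16.6, 16.8 and 18.8 FPKM in Refbx23 in VMMG, at 2.03, 0.44 and 0.87 FPKM in Δfbx23 and at 1.75, 2.79 and 0.99 FPKM in the WT. In VMMC it was at 462, 428 and 423 FPKM in Refbx23, at 494, 691 and 750.4 FPKM in Δfbx23 and at 406, 447 and 446 FPKM in the WT. The level reached by Refbx23 in VMMG was thus far below that of every strain in VMMC. PDE_00009 followed the same order, with 13.6 ± 1.82 FPKM in Refbx23 in VMMG and 97.1 ± 6.45 FPKM in Refbx23 in VMMC (SD, n = 3 each). PDE_00010 averaged 6.84 ± 1.73 FPKM in Refbx23 in VMMG and 16.7 ± 1.17 FPKM in Refbx23 in VMMC (SD, n = 3 each). The flanking genes PDE_00007 and PDE_00011 were no members. Refbx23 stood 1.94 and 1.89 above the WT for them in VMMG, and Δfbx23 1.04 and 1.15 below the WT.

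The level of the members in each medium was then compared within a strain, as VMMG minus VMMC on the log2 scale. This is a description, since the VMMG values chose the genes. The median was 0.75 in Refbx23, -2.44 in Δfbx23 and -2.12 in the WT, against -0.06, -0.19 and -0.13 over the 8056 genes that averaged 1 FPKM or more. The VMMG level was lower by at least 1 for 9 of the 91 members in Refbx23, for 81 in Δfbx23 and for 73 in the WT. Over the 8056 genes these shares were 13.9%, 21.1% and 25.8%. Most members were therefore genes that both Δfbx23 and the WT held lower in glucose than in cellulose.

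**Figure D3:**
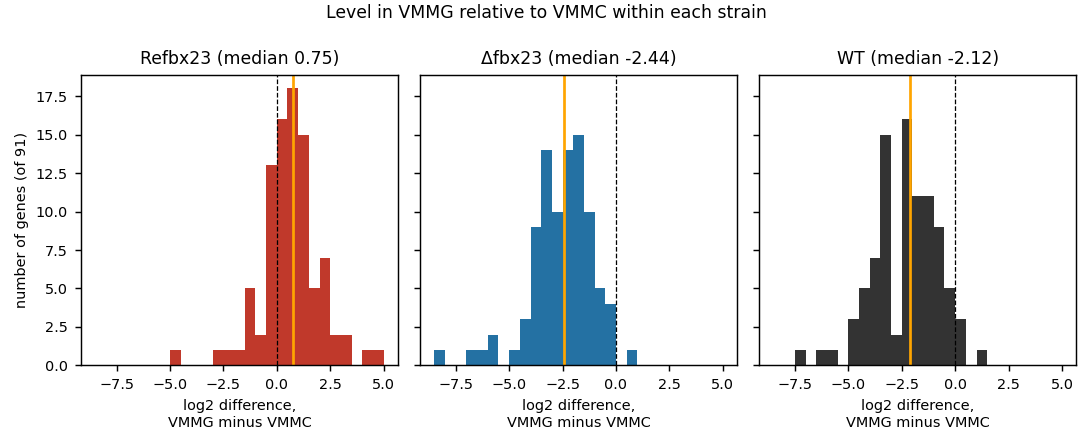
Bars count the 91 genes by their log2 difference between media (VMMG minus VMMC, horizontal axis) in Refbx23, Δfbx23 and the WT; the dashed line marks 0 and the orange line the median. The medians are 0.75 in Refbx23, -2.44 in Δfbx23 and -2.12 in the WT.

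Set against the WT in VMMC, the level of Refbx23 in VMMG was within 1 on the log2 scale for 46 members, at least 1 higher for 37 and at least 1 lower for 8, beside 66.9%, 12.8% and 20.3% of the 8056 genes. PDE_00008, with a difference of -4.56, was the lowest of these and PDE_03332, with 4.63, the highest. PDE_03332 was at 37.5, 39.2 and 48.0 FPKM in Refbx23 in VMMG, at 2.44, 1.20 and 1.68 FPKM in Δfbx23 and at 2.5, 2.32 and 3.11 FPKM in the WT. In VMMC it was at most 0.60 FPKM in Refbx23, 0.82 FPKM in Δfbx23 and 0.78 FPKM in the WT. It was the 1 member that Δfbx23 held higher in VMMG than in VMMC. PDE_01184 was likewise high in Refbx23 in VMMG alone, with 4.03, 32.02 and 12.2 FPKM, and at most 0.68 FPKM in every other library. PDE_00437 and PDE_09933 averaged 209 ± 24.5 and 83.4 ± 5.69 FPKM in Refbx23 in VMMG, against 35.3 ± 1.80 and 8.77 ± 0.392 FPKM in the WT in VMMC (SD, n = 3 each).

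Refbx23 was next tested against the other strains in VMMC with limma on log2(FPKM + 1), over all genes that averaged 1 FPKM or more across both groups. Calls required a difference of 2-fold or more together with an adjusted p (Benjamini-Hochberg) under 0.05. Of the 91 members, 88 were tested in each comparison, and PDE_00910, PDE_01184 and PDE_03332 were too low in VMMC. Against the WT, 3 members were called higher, beside 5.63% of the 8012 genes tested, and 5 were called lower, beside 7.09%, or 8 in either direction beside 12.7%. The members called higher and lower were 3.41% and 5.68% of the members tested. The median difference of the members was -0.03, and that of all genes tested -0.01. The 95% confidence interval lay within a fold change of 2 for 74 of the 88 members (84.1%), beside 78.3% of all genes tested. All 3 Refbx23 libraries lay above all 3 WT libraries for 22 members and below them for 34, beside 33.9% and 34.1% of all genes tested. Against Δfbx23, 1 member was called higher, beside 1.44% of the 7894 genes tested, and 1 was called lower, beside 1.67%, or 2 in either direction beside 3.12%. All 3 Refbx23 libraries lay above all 3 Δfbx23 libraries for 16 members and below them for 16, beside 22.3% and 13.6% of all genes tested. The median difference there was -0.02 for the members and 0.03 for all genes tested. The interval again lay within a fold change of 2 for 74 of the 88 (84.1%), here beside 91.2% of all genes tested. The 2 comparisons share the Refbx23 libraries. The rule also kept only genes alike in Δfbx23 and the WT in VMMC, a limit not set on all genes tested, so the shares of members and of all genes are not drawn on equal terms.

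**Figure D4:**
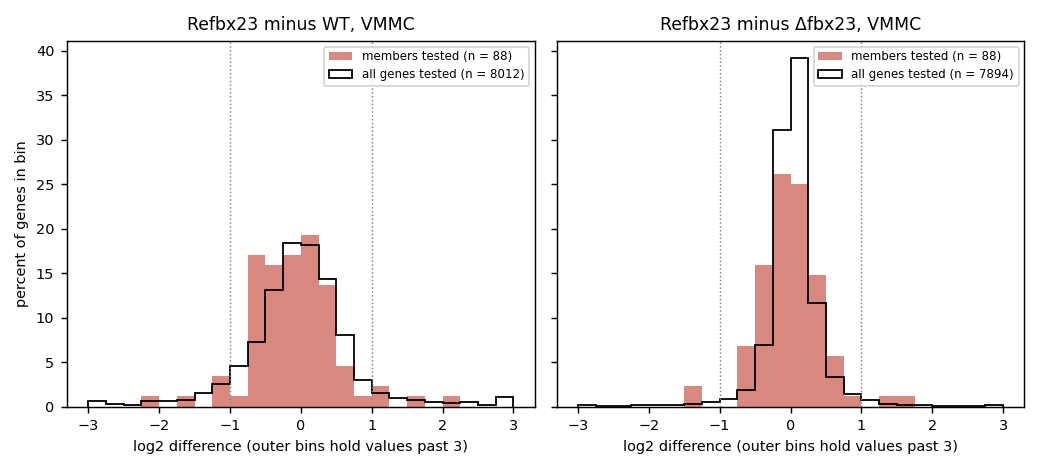
Bars give the percentage of the 88 members tested, and black lines that of all genes tested, by their log2 difference in VMMC for Refbx23 minus WT (left) and Refbx23 minus Δfbx23 (right); dotted lines mark a fold change of 2. In both panels the members lie around 0, with medians of -0.03 and -0.02.

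The member with the largest fall against the WT in VMMC was PDE_03435, which was at 2.19, 1.93 and 2.35 FPKM in Refbx23 in VMMC, at 11.8, 8.37 and 2.74 FPKM in Δfbx23 and at 14.7, 14.1 and 11.3 FPKM in the WT. It fell by 2.18 on the log2 scale (SE 0.12, adjusted p = 3.06e-06 from limma). Against Δfbx23 the log2 difference was -1.28 (SE 0.41, limma adjusted p = 0.0796) and was not called. Only the fit without Δfbx23 VMMC replicate 3 called it lower there. In VMMG the same gene was at 20.97, 33.2 and 22.9 FPKM in Refbx23, against at most 1.05 FPKM in Δfbx23 and at most 1.87 FPKM in the WT.

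PDE_03901 was at 12.9, 12.8 and 12.4 FPKM in Refbx23 in VMMC, at 20.8, 19.5 and 22.99 FPKM in Δfbx23 and at 38.0, 44.3 and 42.7 FPKM in the WT. It fell by 1.63 on the log2 scale against the WT (SE 0.08, limma adjusted p = 1.20e-06). In VMMG it was at 231, 279 and 289.6 FPKM in Refbx23, at 11.8, 10.6 and 7.40 FPKM in Δfbx23 and at 4.71, 4.52 and 18.3 FPKM in the WT. All Refbx23 libraries thus lay above those of both other strains in VMMG and below them in VMMC, while the Δfbx23 and WT libraries overlapped in VMMG.

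The other falls against the WT were smaller. PDE_00888 was at 24.3, 26.9 and 32.2 FPKM in Refbx23 in VMMC and at 62.7, 56.3 and 62.2 FPKM in the WT, a log2 difference of -1.10 (SE 0.11, limma adjusted p = 5.75e-05). PDE_05462 was at 220.0, 197 and 226 FPKM in Refbx23 and at 510.2, 441 and 362 FPKM in the WT (log2 difference -1.01, SE 0.12, limma adjusted p = 0.000217). PDE_05543 was at 127, 125 and 115 FPKM in Refbx23 and at 215, 262 and 269.8 FPKM in the WT (log2 difference -1.01, SE 0.10, limma adjusted p = 5.69e-05). The last 2 genes stood just past a fold change of 2, and leaving out 1 library brought the difference to as little as -0.90 for PDE_05462 and -0.95 for PDE_05543, which ended the call.

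The 3 rises against the WT in VMMC were those of PDE_03839, PDE_06628 and PDE_06627. PDE_03839, for which no function was found, was at 12.8, 12.9 and 16.2 FPKM in Refbx23 in VMMC, at 5.13, 4.46 and 5.55 FPKM in Δfbx23 and at 2.15, 3.06 and 1.85 FPKM in the WT. It rose by 2.16 on the log2 scale against the WT (SE 0.16, limma adjusted p = 1.14e-05) and by 1.30 against Δfbx23 (SE 0.12, limma adjusted p = 0.00063). It was the 1 member called in the same direction against both strains. In VMMG it was at 9.60, 15.1 and 10.9 FPKM in Refbx23, at 1.85, 0.62 and 0.62 FPKM in Δfbx23 and at 1.85, 0.94 and 0 FPKM in the WT.

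The other 2 were the genes of cluster 20, called against the WT only. PDE_06628 was at 10.6, 9.41 and 10.3 FPKM in Refbx23 in VMMC, at 3.58, 6.20 and 8.48 FPKM in Δfbx23 and at 4.98, 3.63 and 4.30 FPKM in the WT, and it rose by 1.07 against the WT (SE 0.12, limma adjusted p = 0.000121). PDE_06627 was at 8.01, 6.96 and 6.03 FPKM in Refbx23, at 2.41, 3.43 and 3.69 FPKM in Δfbx23 and at 3.28, 2.96 and 2.69 FPKM in the WT, and it rose by 1.00 against the WT (SE 0.13, limma adjusted p = 0.000262). Leaving out 1 library brought these differences to as little as 0.97 and 0.91, which ended the call, and median-ratio scaling brought that of PDE_06627 to 0.98. Against Δfbx23 the log2 differences were 0.70 for PDE_06628 (limma adjusted p = 0.0966) and 0.94 for PDE_06627 (limma adjusted p = 0.00855), neither of them called.

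Against Δfbx23 in VMMC, PDE_09040 was at 34.1, 29.8 and 27.4 FPKM in Refbx23, at 82.7, 82.4 and 79.8 FPKM in Δfbx23 and at 63.0, 44.4 and 37.8 FPKM in the WT. It fell by 1.40 on the log2 scale against Δfbx23 (SE 0.09, limma adjusted p = 7.54e-05). With all 18 libraries in 1 fit the adjusted p of this gene was 0.054. In VMMG it was at 51.6, 268 and 121 FPKM in Refbx23, against at most 1.95 FPKM in Δfbx23 and at most 5.41 FPKM in the WT. For each called member all 3 Refbx23 libraries lay on one side of those of the other strain, with p = 0.1 in the two-sided exact permutation test, the smallest that 3 libraries against 3 allow.

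Replicates of a group were not equal for these genes. Of the 3 Refbx23 libraries in VMMG, replicate 2 was the highest for 62 of the 91 members and replicate 1 the lowest for 71. Over all genes that averaged 1 FPKM or more these shares were 23.5% and 35.1%. The highest library was over 2 times the lowest for 25 members, with a median of 1.56 times and a largest value of 7.95 times for PDE_01184. Among the WT libraries in VMMG, replicate 3 was the highest for 69 of the 88 members with differing values, beside 34.1% of all genes, and among the Δfbx23 libraries in VMMC replicate 1 was the lowest for 69 of 91, beside 35.1%. Without Refbx23 VMMG replicate 1 the rule kept 100 genes, 87 of them among the 91, and without WT VMMG replicate 3 it kept 103, with 89 of the 91.

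The conidiation regulator brlA, for which PDE_00087 was taken as the locus from general knowledge, was at 282, 531 and 459.5 FPKM in Refbx23 in VMMG, at 0.73, 3.31 and 1.62 FPKM in Δfbx23 and at 11.7, 15.4 and 35.2 FPKM in the WT. In VMMC it was at 205, 209.7 and 211 FPKM in Refbx23, at 165, 214 and 263 FPKM in Δfbx23 and at 316, 286 and 243 FPKM in the WT. Its highest and lowest Refbx23 libraries and its highest WT library in VMMG, and its lowest Δfbx23 library in VMMC, were the same as those of most members. Among the WT libraries in VMMC, replicate 1 was the highest for brlA and for 55 of 91 members, beside 38.55% of all genes. In Δfbx23 in VMMG and in Refbx23 in VMMC the order differed. Among the Δfbx23 libraries in VMMG, brlA was highest in replicate 2 and lowest in replicate 1. Members there were most often highest in replicate 1 (53 of 88, 60.2%, beside 41.3% of all genes). They were most often lowest in replicate 2 (39 of 88, 44.3%, beside 43.9%). Among the Refbx23 libraries in VMMC, brlA was lowest in replicate 1, where members were most often highest (35 of 91, 38.5%, beside 34.3%). Shares of members near those of all genes are not read as a difference from brlA. All 6 pigment genes were at least 2 higher on the log2 scale in Refbx23 than in both other strains in VMMG too, with means from 197 to 1805 FPKM in Refbx23, 0.953 to 40.9 FPKM in Δfbx23 and 22.9 to 362 FPKM in the WT. Neither brlA nor a pigment gene was a member, because Δfbx23 stood below the WT by 1.06 for abrA and by 2.86 to 5.30 for brlA and the other 5. The part of sporulating cells in the levels of the members was not tested.

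**Figure D5:**
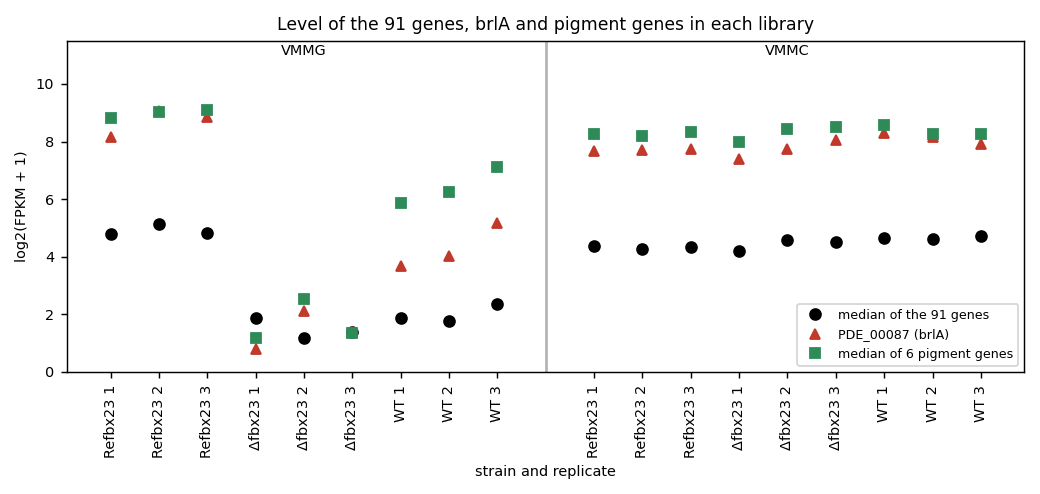
Points show, for each of the 18 libraries, the median log2(FPKM + 1) of the 91 genes, the level of brlA and the median of 6 pigment genes. In VMMG the median of the 91 genes is 4.79 to 5.15 in Refbx23, 1.20 to 1.87 in Δfbx23 and 1.75 to 2.38 in the WT. Levels of brlA and the pigment genes also separate Δfbx23 from the WT there, a difference that the rule limited for the 91 genes.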

How the data were processed

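The authors mapped the reads of 18 libraries to the P. oxalicum genome and deposited FPKM per gene with 2 decimals, unpooled. The aligner and genome version are not given in the sources used here. The labels give 18 h of culture, Mendal's medium (modified), glucose at 2% or bran and microcrystalline cellulose at 1% each, and a tag-based library, where the methods give another time, Vogel's medium and RNA-Seq. If the libraries hold tags, levels of different genes are less comparable. The table holds no read counts, so sequencing depth is not known. No identifier matched the reference at hand, so no position or sequence is given.

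FPKM were used as deposited with Python 3.11.15, pandas 2.3.3, numpy 2.4.6, R 4.3.3, limma 3.58.1 and matplotlib 3.10.9. Members and lists were chosen with earlier results of these data known. Named members were the 10 highest and the 10 with the largest difference in Refbx23 in VMMG, those called in VMMC, those in a cluster, list or protein table of the study, those in a run of 3 or more, and those at the limits. PDE_00437, PDE_01184, PDE_01603, PDE_03138, PDE_03332 and PDE_09933, and the members named from GO lists, which were read in part, were chosen after their values were seen, as were PDE_03454, PDE_00007, PDE_00011 and PDE_09832. The alternatives were other pseudocounts, filters and scaling, all 18 libraries in 1 fit, a replicate block, no trend, and leaving out each library.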

Additional observations from a re-analysis of the deposited data

Results flagged for a closer look

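Of the 10 calls of members in VMMC, 6 were lower in Refbx23. The rule had chosen every member as higher in Refbx23 in VMMG, so each lower call was opposite to VMMG by construction. Members were called lower in 5.68% against the WT and 1.14% against Δfbx23, beside 7.09% and 1.67% of all genes tested. For these 6 calls every Refbx23 library lay above the other strain in VMMG and below it in VMMC. The difference between the media was not tested, because the VMMG values chose the genes. Against the WT the log2 differences in VMMC were -2.18 for PDE_03435, -1.63 for PDE_03901, -1.10 for PDE_00888, -1.01 for PDE_05462 and -1.01 for PDE_05543. In VMMG the same genes stood 4.0, 4.98, 2.06, 3.87 and 2.54 above the WT. Against Δfbx23 the difference of PDE_09040 was -1.40 in VMMC and 5.43 in VMMG.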

How the results depend on the processing

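The count of members was 81 to 103 when 1 library was left out, and 92 with a minimum of 1 FPKM in place of 5. Leaving out 1 library in VMMC gave 984 to 1065 genes called for Refbx23 against the WT, with 2 to 4 members higher and 4 to 5 lower, and 221 to 280 genes called against Δfbx23, with 1 to 2 members higher and 1 to 2 lower. Against Δfbx23, pseudocounts of 0.1 and 0.5 each gave 2 members called higher, PDE_03839 and PDE_06627, and all 18 libraries in 1 fit gave 0 members called lower. None of the 10 calls of members in VMMC reversed its direction under an alternative, and the direction of members not called was not followed. The calls of PDE_00888, PDE_03435 and PDE_03901 against the WT, and of PDE_03839 in both comparisons, held under all 14 alternatives.

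Whether same-numbered replicates varied together was looked at in VMMC only. The correlation of their deviations from the group means was 0.0565, 0.287 and 0.0302 for Refbx23 and the WT, and -0.0619, -0.235 and -0.208 for Refbx23 and Δfbx23. Pairs of unlike number ran from -0.229 to 0.178 and from -0.0385 to 0.249. These values show no steady pairing by number, and whether same-numbered libraries shared a batch was not tested. With a replicate block 1034 and 250 genes were called, in place of 1019 and 246, and the members called were the same 8 and 2.

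The reads per library are unknown, so no limit from counting can be set on low values, and 3 members were too low in VMMC to test. With 3 libraries per group no exact test can pass p = 0.1.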
